A study of Homo sapiens with 3 samples.

Results

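The genome-wide lists of ZMYND11 and ETS2 binding regions were examined at 8 genes that respond to ERK, the last kinase of the Ras and MAP kinase cascade: EPHA2, ZFP36L1, EGR1, DUSP6, PHLDA1, IER3, MYC and CCND1. A listed region was assigned to a gene where it overlapped the gene's interval on hg19 widened by 10 kb on both sides, and 31 of the 17232 regions in the 3 lists qualified. The genes had been selected on these lists themselves, with the presence and place of regions at each locus already known. The counts and places below therefore describe the 8 loci and were not tested.

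The regions came from chromatin immunoprecipitation followed by sequencing in DU145, a prostate adenocarcinoma line established from a brain metastasis. The antibody target was ZMYND11, also known as BS69, in 1 parental library and 1 library from cells with ETS1 knocked out, and ETS2 in another library from ETS1-knockout cells. None had a replicate, no input library was analysed here, and puromycin was in the medium of selected cells only. Whether the knockout was 1 clone is not stated in the labels, and the loss of ETS1 could not be checked in lists of regions. The lists held 536, 15676 and 1020 regions for parental ZMYND11, knockout ZMYND11 and knockout ETS2, as coordinates with no score or read count. Depth and the error of a single region are therefore unknown, and a region missing from a list was not listed, which does not show that the protein was absent. The place of a region is its line number in its list, and the meaning of that order is not stated in the sources used here.

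In the ERK pathway, growth factor receptors activate Ras, Raf and MEK, and activated ERK phosphorylates transcription factors, among them ETS1 and ETS2. The genes that then respond include transcription factors made within minutes, inhibitors that feed back on ERK itself, and genes that carry cells into division. ETS factors bind DNA around a GGAA core. ZMYND11, a co-repressor, recognises a methylated form of histone H3 found over transcribed gene bodies.

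All 8 loci held a knockout ZMYND11 region, 5 held a parental ZMYND11 region and 3 held an ETS2 region. The numbers of regions were 22, 5 and 4 in the same order, or 0.140%, 0.933% and 0.392% of each list. As a background, the chromosome of each locus was divided into windows as wide as that locus with its flanks (21.4 to 51.8 kb). Of 43696 such windows, 8.73% held a knockout ZMYND11 region, 0.604% a parental ZMYND11 region and 1.0% an ETS2 region. DUSP6 and PHLDA1 share chromosome 12, which was divided separately for each, and both sets of windows entered this total. The windows include long stretches without genes. Among windows that did hold a knockout ZMYND11 region, 2.86% also held a parental region and 11.2% an ETS2 region. Since the loci were picked with the lists in view, nothing further is read from the distance between these values and the counts at the 8 genes.

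**Figure D1:**
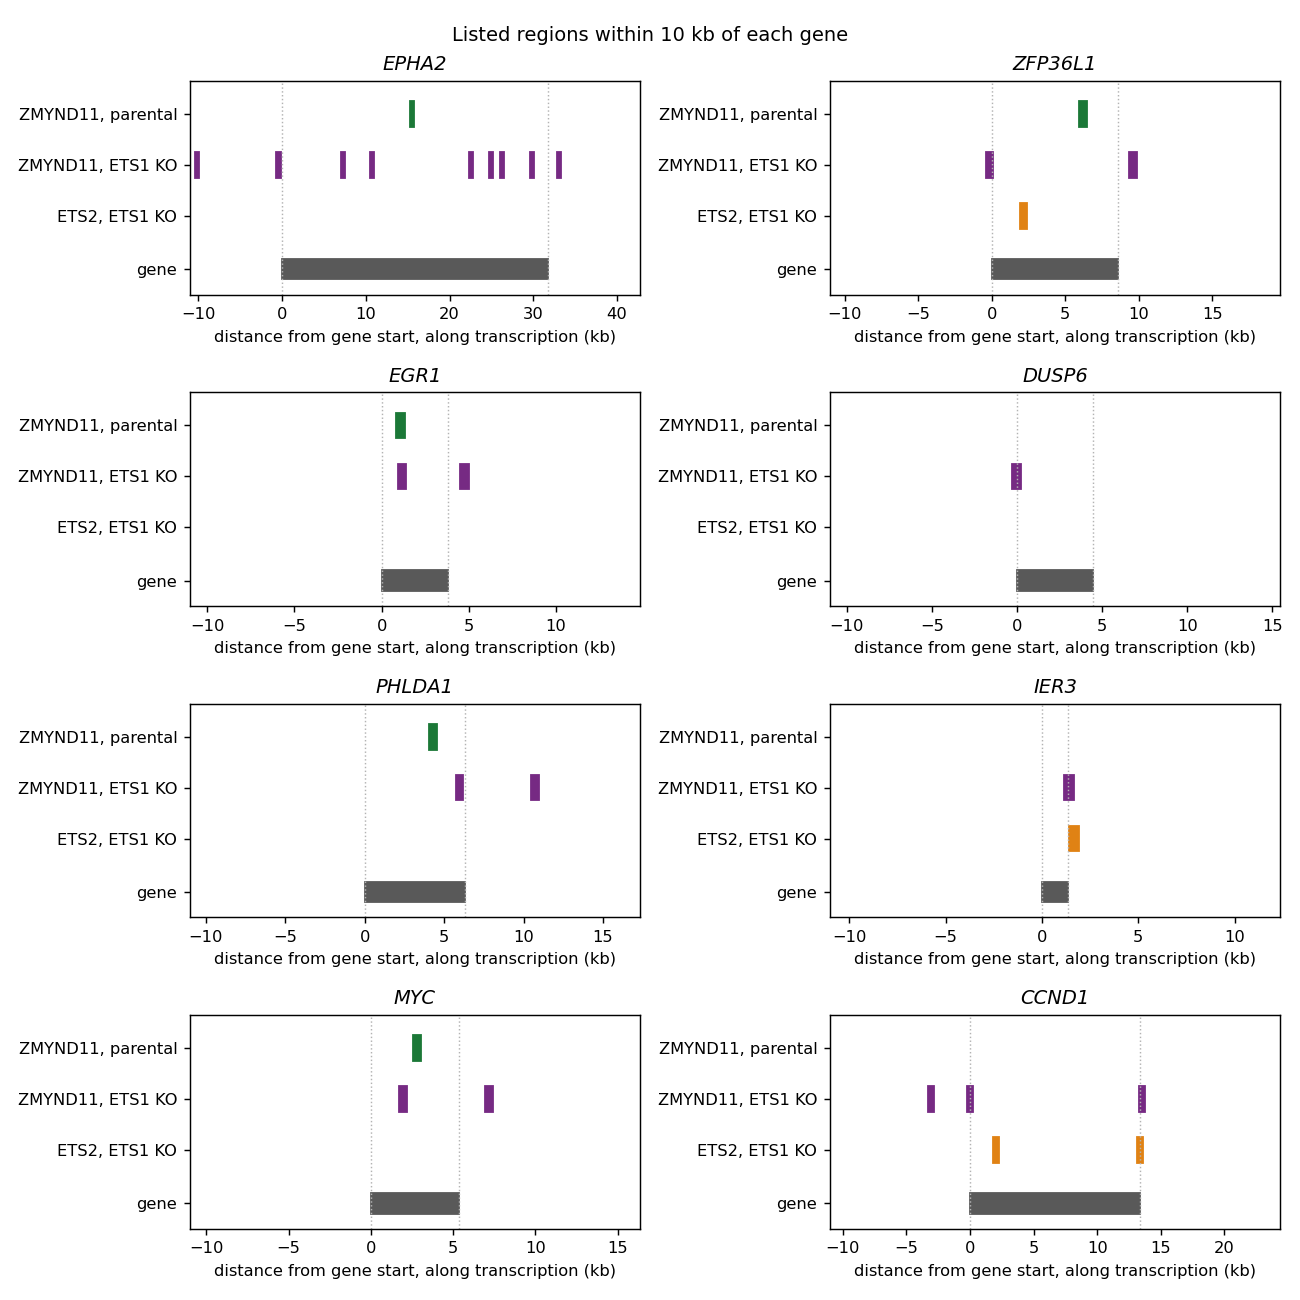
Regions listed within 10 kb of each gene, drawn to scale along the direction of transcription. The horizontal axis is the distance from the gene start in kb with a separate scale for each gene, the grey bar is the gene, and each coloured box is 1 listed region (green parental ZMYND11, purple knockout ZMYND11, orange knockout ETS2). The 5 parental boxes lie inside the gene bars, and purple boxes lie inside the genes as well as at and past their ends.

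Sequences before the gene start are shown for the 3 genes where a knockout ZMYND11 region lay at or next to the start and a promoter was in the RefSeq table used here. These genes are EPHA2, DUSP6 and ZFP36L1. The table (build GRCh38.p14) matched 5 of the 8 genes by symbol with 6 promoters, and IER3, MYC and CCND1 had no entry. It is on another build than the lists, so the windows were not placed on list coordinates. A printed window is therefore not the sequence of a listed region, and its GGAA cores need not lie in one. The 250 bases before the start are given 5′ to 3′ on the gene's strand, the minus strand for all 3. Capitals mark the core GGAA or its reverse complement TTCC.
EPHA2, chr1:16156070-16156319 of GRCh38.p14.
EPHA2: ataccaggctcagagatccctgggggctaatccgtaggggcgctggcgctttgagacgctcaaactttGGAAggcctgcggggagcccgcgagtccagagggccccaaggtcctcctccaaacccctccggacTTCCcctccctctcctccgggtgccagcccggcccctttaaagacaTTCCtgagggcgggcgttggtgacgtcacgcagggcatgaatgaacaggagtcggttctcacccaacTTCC
DUSP6, chr12:89352502-89352751 of GRCh38.p14.
DUSP6: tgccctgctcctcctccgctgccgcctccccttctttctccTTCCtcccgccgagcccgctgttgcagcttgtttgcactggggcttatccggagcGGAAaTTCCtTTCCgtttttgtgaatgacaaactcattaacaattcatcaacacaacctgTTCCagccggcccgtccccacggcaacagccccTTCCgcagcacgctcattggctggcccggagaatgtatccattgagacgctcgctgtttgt
ZFP36L1, chr14:68796244-68796493 of GRCh38.p14, the farther upstream of its 2 starts.
ZFP36L1: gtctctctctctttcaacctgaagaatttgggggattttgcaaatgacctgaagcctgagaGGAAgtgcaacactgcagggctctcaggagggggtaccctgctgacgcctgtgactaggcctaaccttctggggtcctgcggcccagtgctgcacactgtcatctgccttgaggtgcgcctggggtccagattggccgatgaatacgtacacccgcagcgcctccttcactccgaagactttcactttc
ZFP36L1, chr14:68793417-68793666 of GRCh38.p14, the start inside the gene, shown because the ETS2 region lay nearer to it.
ZFP36L1: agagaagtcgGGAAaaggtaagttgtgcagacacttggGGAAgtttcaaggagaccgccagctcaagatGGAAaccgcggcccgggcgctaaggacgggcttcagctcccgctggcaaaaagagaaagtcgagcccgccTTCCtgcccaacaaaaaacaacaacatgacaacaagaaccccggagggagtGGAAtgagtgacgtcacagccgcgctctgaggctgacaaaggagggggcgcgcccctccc

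The core occurred 4 times in the EPHA2 window, 6 times in the DUSP6 window, and 1 time before the upstream and 5 times before the inner start of ZFP36L1. Counted the same way on both strands, 34.3%, 9.14%, 92.7% and 18.6% of all 35116 promoters of the table held at least as many. The core is short, and 92.7% of all promoters held it at least 1 time. The AP-1 motif TGANTCA, searched on both strands, was in 0 of the 6 promoters of these genes and in 6.57% of all promoters. The CArG box, the site of serum response factor, was in 1 of the 6 (EGR1, 2 matches) and in 1.16% of all promoters. These matches are letters in a window and do not show binding.

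EPHA2, a receptor tyrosine kinase for ephrin-A ligands, had the most regions. The gene was taken as chr1:16450832-16482582 on the minus strand. Parental cells had 1 region there, chr1:16466807-16467302, at place 6 of 536, with its midpoint 15527 bp from the gene start, 48.9% of the way along the gene. The knockout list had 9 regions, with places from 843 to 8185, and none overlapped the parental one. Of windows of the same width along chromosome 1, 0.187% (9 of 4801) held 9 or more knockout regions. EPHA2 was the densest of loci picked with their regions known. For the other loci, the share of equal windows on their chromosome with at least as many knockout regions was 1.93% (MYC), 2.20% (EGR1), 3.04% (CCND1), 3.96% (PHLDA1), 5.37% (IER3), 5.75% (ZFP36L1) and 9.42% (DUSP6). The nearest to the parental region was chr1:16471583-16472082 at place 1812, with midpoints 4778 bp apart.

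The earliest knockout region at EPHA2 was chr1:16449264-16449763 at place 843, which lay 1069 to 1568 bp past the gene end. Of the 9, 6 lay inside the gene, separated from their neighbours by gaps of 0.908 to 11.3 kb over the whole locus. The region nearest the start, chr1:16482757-16483249 at place 6433, lay 175 to 667 bp upstream of it. A farther one, chr1:16492479-16492978 at place 3405, reached the 10 kb flank with 103 bp to spare and was the member closest to that limit. Just outside the limit were knockout regions 10349 bp from IER3 (place 9846) and 10761 bp from CCND1 (place 4085). No ETS2 region was listed at EPHA2, and the nearest on the chromosome was 358 kb away. In RefSeq the antisense gene EPHA2-AS1 overlaps EPHA2, so the regions at this locus cannot be assigned to EPHA2 alone.

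DUSP6 encodes a phosphatase that removes the activating phosphates of ERK and is a feedback inhibitor of the pathway. At chr12:89741837-89746296 on the minus strand, it had only 1 region in the 3 lists, knockout ZMYND11 chr12:89746092-89746583 at place 4684 (29.9% into the list). That region spanned the gene start, from 287 bp before it to 204 bp after it. Neither parental ZMYND11 nor ETS2 was listed within 10 kb, and the nearest were 2590 kb and 1210 kb away. In RefSeq a readthrough transcript from POC1B runs across DUSP6.

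EGR1 and MYC are transcription factors, the former a zinc-finger protein of the immediate-early response and the latter a basic helix-loop-helix protein that drives growth. EGR1 (chr5:137801181-137805004, plus strand) held the only place among the 8 loci where the parental and knockout ZMYND11 lists overlapped. The parental region was chr5:137802021-137802518 at place 122 of 536, and the knockout region was chr5:137802095-137802581 at place 10426 of 15676. They shared 423 bp and their midpoints were 68.5 bp apart, 1088 and 1157 bp into the gene. The place was thus 22.8% into the parental list and 66.5% into the knockout list. The lists differ in length and the meaning of their order is not stated, so no shift is read from these percentages. A second knockout region, chr5:137805679-137806175 at place 12134, lay 675 to 1171 bp past the gene end. Both knockout places at EGR1 were later than those of any other locus except the ZFP36L1 start region. No ETS2 region was listed at EGR1, the nearest being 83.4 kb away.

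At MYC (chr8:128748315-128753680, plus strand) the parental region was chr8:128750890-128751391 at place 312, 52.7% of the way along the gene. The nearest knockout region, chr8:128750046-128750537 at place 2046, stopped 353 bp before it, and the midpoints were 849 bp apart. An earlier-listed knockout region, chr8:128755275-128755768 at place 1185, lay 1595 to 2088 bp past the gene end. The order in the list therefore put the region past the end before the one inside the gene. The nearest ETS2 region was 15900 kb away.

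ZFP36L1 encodes an RNA-binding protein that speeds the decay of messages with AU-rich elements. It was the only locus with a region from each of the 3 lists, and these lay at 4 separate positions. Along the minus strand of chr14:69254372-69262960, knockout ZMYND11 came first with chr14:69262882-69263378, which spanned the gene start and stood at place 13992, late in its list (89.3%). ETS2 followed at chr14:69260554-69261047, place 595 of 1020, 1913 to 2406 bp into the gene from the upstream start. The inner RefSeq start lies 2827 bp into the gene on GRCh38, where the gene is as long as on hg19 (8589 bp). If the spacing is equal on both builds, the ETS2 midpoint was 668 bp upstream of the inner start. Parental ZMYND11 was at chr14:69256518-69257011, place 9 of 536, 72.1% of the way along. A second knockout ZMYND11 region, chr14:69253116-69253617 at place 222, lay 755 to 1256 bp past the gene end. Midpoints of the parental and this knockout region were 3398 bp apart, and those of the ETS2 region and the nearest knockout region were 2330 bp apart. Both ZMYND11 lists thus had an early region at ZFP36L1, at different positions.

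PHLDA1, a pleckstrin-homology-like protein induced by growth signals, lay at chr12:76419227-76425556 on the minus strand. Parental ZMYND11 was listed at chr12:76421014-76421509, place 176, 67.8% of the way along the gene. The earlier of 2 knockout regions, chr12:76419343-76419836 at place 401, lay inside the gene 116 to 609 bp before its end, with a gap of 1178 bp to the parental region. The other, chr12:76414582-76415066 at place 2785, lay 4161 to 4645 bp past the end. ETS2 was not listed within 10 kb, and its nearest region was 47.1 kb away.

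IER3, an immediate-early gene that affects cell survival, is the shortest of the 8 (1.36 kb, chr6:30710976-30712331, minus strand). Knockout ZMYND11 was listed at chr6:30710669-30711164, place 303 of 15676, across the gene end. ETS2 was listed at chr6:30710410-30710905, place 105 of 1020, 71 to 566 bp past the end. These regions shared 236 bp, and their midpoints were 259 bp apart. The ETS2 region was the earliest listed of the 4 at these genes. No parental region was listed within 10 kb, and the nearest was 19.1 kb past the end, at place 240. In RefSeq, FLOT1 is the next gene on the end side of IER3 and is read from the same strand. The FLOT1 start therefore faces the IER3 end. IER3-AS1 overlaps IER3. Whether the pair of regions belongs to IER3, FLOT1 or IER3-AS1 cannot be told apart from the lists.

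CCND1 encodes cyclin D1, which activates the kinases that start the cell cycle. At chr11:69455873-69469242 on the plus strand it held 3 knockout ZMYND11 and 2 ETS2 regions and no parental one. The knockout region at place 221, chr11:69469164-69469662, spanned the gene end and was the earliest of all 22. ETS2 chr11:69468992-69469493 at place 725 of 1020 spanned the same end. They shared 329 bp, and the midpoints were 170 bp apart. The knockout region at place 4777, chr11:69455641-69456141, spanned the gene start. ETS2 chr11:69457660-69458157, at place 984 near the close of its list (96.5%), lay 1787 to 2284 bp into the gene, 2018 bp from the start-spanning region by midpoint. The third knockout region, chr11:69452594-69453079 at place 5977, lay 2794 to 3279 bp upstream. The nearest parental region was 2800 kb away.

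At 6 of the 8 loci, the earliest-listed knockout ZMYND11 region lay within 2 kb of the gene end. DUSP6 and EGR1 were the exceptions. The only DUSP6 region spanned the gene start, and at EGR1 the region inside the gene (place 10426) was listed before the one past the end (place 12134). RefSeq also has other genes within 10 kb on the end side of CCND1 (LOC124902704), ZFP36L1 (LOC107984709), EGR1 (RPL7P19) and IER3 (FLOT1). PHLDA1-AS1 overlaps PHLDA1. Regions near those ends cannot be assigned to the named gene alone. Of the 22 regions, 6 stood in the first 10% of the list (27.3%), 1 each at CCND1, ZFP36L1, IER3, PHLDA1, EPHA2 and MYC. The midpoints of all 6 were within 2 kb of a gene end, at distances of 59 bp (IER3), 171 bp (CCND1), 362 bp (PHLDA1), 1005 bp (ZFP36L1), 1318 bp (EPHA2) and 1841 bp (MYC). Since each of these 6 genes had 1 region in the first 10%, that region was necessarily the earliest of its locus. At the narrower distance of 1 kb, 3 of the 6 (IER3, CCND1 and PHLDA1) were near an end. The IER3 region lay 1414 bp from the start of that short gene too. In all, 8 of the 22 regions were within 2 kb of an end, with a median place of 622. That distance was set after the positions had been seen, and on the inner side it covers all of IER3 (1356 bp) and much of EGR1 (3824 bp). The other 14 had a median place of 5833.5, and the earliest of them was at place 1812 (EPHA2). The 2 regions near an end that were not early were at EPHA2 (place 4474) and EGR1 (place 12134).

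Midpoints within 2 kb of a start numbered 7, of which 1 was in the first 10% of the list, the IER3 region at place 303 that was counted near an end too. The others were at MYC (place 2046), DUSP6 (place 4684), CCND1 (place 4777), EPHA2 (place 6433), EGR1 (place 10426) and ZFP36L1 (place 13992). Within 1 kb of a start there were 4 (DUSP6, CCND1, EPHA2 and ZFP36L1), and 0 of these were in the first 10%. The distance of 2 kb was set after the positions had been seen, and no share of regions near gene ends over all genes was computed, since no annotation on hg19 was used. The counts near ends and starts are therefore a description of these 8 loci.

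**Figure D2:**
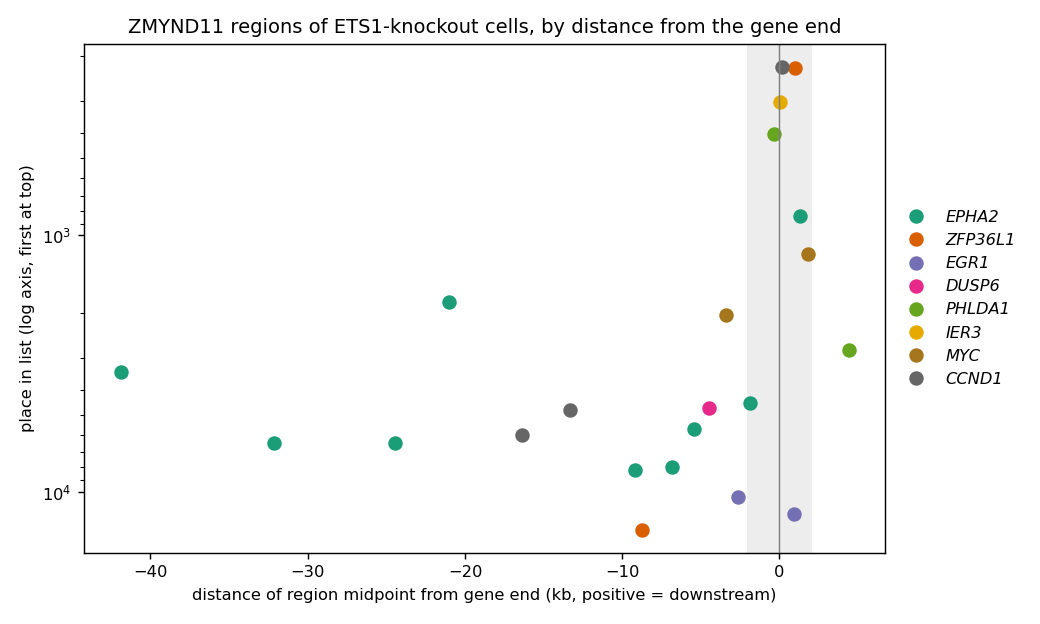
Place of the 22 knockout ZMYND11 regions in their list (vertical log axis, first at the top) against the distance of the midpoint from the gene end in kb (negative inside or before the gene, positive past the end). Each point is 1 region coloured by gene, and the shaded band covers 2 kb on both sides of the end. The 6 points nearest the top, at places 221 to 1185, all lie in the band, and 2 more in the band are at places 4474 and 12134.

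All 5 parental ZMYND11 regions lay wholly inside the gene, between 28.5% (EGR1) and 72.1% (ZFP36L1) of its length. Of the 22 knockout regions, 9 lay wholly inside the gene, the most frequent position there too, 3 spanned a start, 2 spanned an end, 3 lay upstream and 5 downstream. The parental midpoints were at least 1088 bp from the start and at least 2034 bp from the end. Those of 4 of the 5 were 2034 to 2734 bp from the end, just beyond the 2 kb used above. A difference in position between the lists was not tested. Of the 5, 1 overlapped a knockout ZMYND11 region, where 10.4% of the whole parental list did so (56 of 536, 95% Wilson interval 8.13 to 13.3%). None of the 5 overlapped an ETS2 region, against 3.36% of the whole list. With 5 regions, neither count can be told from those shares. Counted from the knockout list, 1 of the 22 regions overlapped a parental region (0.357% of the whole list) and 2 overlapped an ETS2 region (3.71% of the whole list). In list order the parental regions were those of EPHA2 (place 6), ZFP36L1 (place 9), EGR1 (place 122), PHLDA1 (place 176) and MYC (place 312).

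Of the 4 ETS2 regions, those at IER3 and at the CCND1 end overlapped a knockout ZMYND11 region, where 57.1% of the whole ETS2 list did so (582 of 1020, interval 54.0 to 60.1%). The share at these genes was near that of the list. Both overlapped regions were at the ends of these genes, and both ZMYND11 partners were among the 6 early ones. With 4 ETS2 regions this is a description only. The places of all knockout ZMYND11 regions that overlap an ETS2 region were not compared, so early partners may not be particular to these genes. The IER3 end faces the start of FLOT1, and LOC124902704 lies on the end side of CCND1. Neither pair can therefore be assigned to the named gene alone. None of the 4 ETS2 regions stood in the first 10% of the ETS2 list, and their places ran from 105 to 984. No ETS2 midpoint was within 1 kb of the start of the 8 gene intervals. That count leaves out the inner start of ZFP36L1 described above and the starts of neighbours, among them FLOT1. The distance of the IER3 pair from the FLOT1 start was not computed, so the pair may lie at a start as well as at an end.

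**Figure D3:**
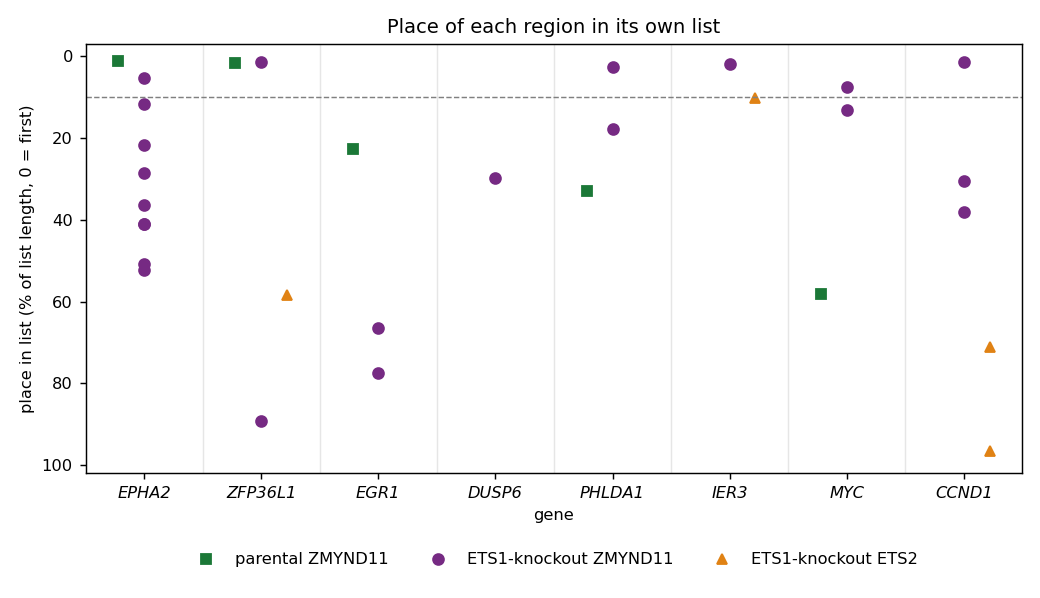
Place of each of the 31 regions in its own list, as a percentage of the list length with the first line at the top, for each gene. Squares are parental ZMYND11, circles knockout ZMYND11 and triangles knockout ETS2, and the dashed line marks 10%. Above the line are 2 parental squares (EPHA2 and ZFP36L1) and 6 knockout circles, with no triangle.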

How the data were processed

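Regions bound by ZMYND11 in parental and ETS1-knockout DU145 cells, and by ETS2 in the knockout cells, were taken from 1 deposited list per library. The 3 columns of each deposited list (chromosome, start, end) hold no other measurement. Bowtie2 2.0.6 and hg19 are named in the submitters' processing notes. The peak caller, its threshold, any control and the depth are not stated in the sources at hand. Starts may be counted from 0 or 1, which changed none of the member counts. Groups were taken from sample titles.

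The gene intervals and members were chosen with earlier results of these data known. Every parental ZMYND11 and ETS2 region at the 8 genes was named. Of the knockout ZMYND11 regions, all were named where a locus held 3 or fewer, and otherwise the earliest, the one nearest the gene start and those overlapping another list, with a few at EPHA2 added after their positions were seen. Regions of different lists overlapped where they shared at least 1 bp. Distances follow the gene's strand, from the ends of the interval. Alternatives were flanks of 0, 5 and 20 kb, reciprocal overlap of 50%, midpoints within 1000 bp, other distances from the start and the first 50% of each list. A set of further ERK pathway genes was planned but not analysed, since no hg19 annotation was used. RefSeq tables on GRCh38.p14 gave promoter sequences, names and neighbours only. Overlap and membership were tested on simulated regions. Python 3.11.15, pandas 2.3.3, scipy 1.17.1 and matplotlib 3.10.9 were used.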

Additional observations from a re-analysis of the deposited data

How the results depend on the processing

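The number of loci with a parental region (4 to 6 under the alternatives) or a knockout ZMYND11 region (7 or 8) stayed close to the main count. Without flanks the knockout regions numbered 14 in place of 22, and without EPHA2 they numbered 13, so EPHA2 holds a large part of that count. ETS2 counts were small: in the first 50% of the list 1 region at 1 locus was left of 4 at 3, and without CCND1 there were 2 regions. Overlap of ETS2 with knockout ZMYND11 went from 2 regions to 1 with reciprocal overlap of 50%, without flanks, and in the first 50% of each list. Overlap of parental with knockout ZMYND11 went from 1 region to 2 for midpoints within 1000 bp (MYC) and to 0 in the first 50% of each list (EGR1 lost). Within 2 kb of a start in place of 1 kb there were 1 parental, 7 knockout ZMYND11 and 1 ETS2 regions. Within 1 kb of a gene end, a distance added after the data were seen, there were 4 knockout regions in place of 8. At single loci, 15 of 96 counts moved by more than the ratio set as the limit (1.5 times). No paired analysis was possible because each group had 1 library, and no replicate could be left out. Without read counts, no limit of detection could be given for any locus.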
